A study of Mus musculus with 17 samples.

Results

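The lungs of NOS2-/- mice were compared with the lungs of wild-type mice 7 h after both had received lipopolysaccharide (LPS). The comparison was set by the labels (genotype, treatment and time) and holds 3 NOS2-/- and 3 wild-type arrays, which are 6 of the 17 arrays of the series. All mice were male and came from 1 supplier, and both groups had 20 mg/kg of Escherichia coli LPS in saline intravenously. The NOS2-/- mice were congenitally deficient in NOS2 and their strain was not given in the labels, while the wild-type mice were C57BL/6J. The remaining arrays were from NOS2-/- (n = 3) and wild-type (n = 3) lungs 22 h after LPS, and from NOS2-/- (n = 1) and wild-type (n = 4) lungs 22 h after saline. No saline lungs were taken at 7 h, and ages were not given. The methods give the sizes of the 22 h groups as numbers of lungs and do not mention the 7 h groups. They do not say that each array was from a mouse of its own, so the p-values measure the spread between these samples.

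NOS2, the inducible nitric oxide synthase, makes nitric oxide from arginine in large amounts once inflammatory stimuli switch its gene on. LPS, a component of the outer membrane of Gram-negative bacteria, is sensed by Toll-like receptor 4, which activates NF-kB and interferon-regulated transcription. In the lung it brings neutrophils into the vessels and induces cytokines, chemokines and vasoactive mediators. Nitric oxide relaxes vessels through guanylate cyclase and modifies proteins that carry thiol or metal groups.

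Affymetrix MOE430A arrays gave 1 log2 signal for each probe set, a group of short probes directed at 1 transcript, and 22626 probe sets were tested. At 7 h, correlations between arrays were 0.994 to 0.996 within the NOS2-/- group, 0.997 to 0.998 within the wild-type group and 0.987 to 0.995 between them. The SD of the signals within an array was 1.66 to 1.71 in NOS2-/- lungs and 1.75 in each wild-type lung, so the NOS2-/- arrays covered a narrower range. Replicate 2 of wild-type LPS at 22 h stood apart, with an SD of 1.61 and correlations down to 0.949 with its own group. It entered the shared estimate of the spread of all 17 arrays, and adjusted p-values are therefore also given without it. Transcripts that define lung tissue were at the top of the range in both genotypes at 7 h. Sftpc, a surfactant protein of alveolar type 2 cells, was at 14.66 to 14.68 in NOS2-/- lungs and 14.59 to 14.67 in wild-type lungs. Scgb1a1, the secretoglobin of club cells, was at 14.66 to 14.89 in NOS2-/- lungs and 14.70 to 14.76 in wild-type lungs. In whole tissue, fewer cells of a type and less RNA per cell cannot be told apart.

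Falls outnumbered rises among the called probe sets, while the median difference over all probe sets was 0.03 on the log2 scale. Of 22626 probe sets, 454 (2.01%) were called at an adjusted p under 0.05 by limma, 119 higher (0.526%) and 335 lower (1.48%) in NOS2-/- lungs. Taken by gene, with 1 probe set each, 271 of 12393 genes were called (2.19%). Without the outlying 22 h array, 6092 probe sets were called (26.9%), 2898 higher (12.8%) and 3194 lower (14.1%), or 3555 genes (28.7%). The count also moved with single 7 h arrays. It was 956, 43 and 28 without NOS2-/- replicates 1, 2 and 3, and 23, 42 and 63 without wild-type replicates 1, 2 and 3. With the outlying 22 h array also left out, the same removals gave 2363 to 7645 called probe sets. The 3 NOS2-/- and 3 wild-type signals did not overlap in 10832 probe sets (47.9%), 6017 higher (26.6%) and 4815 lower (21.3%). An exact permutation test of 3 against 3 samples cannot give a two-sided p below 0.1.

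Differences were modest in size. Only 14 called probe sets differed by 2-fold or more, 3 higher and 11 lower in NOS2-/- lungs, and 37 were called at an adjusted p under 0.01. The difference varied with the signal. Its median was 0.12 on the log2 scale in bin 3 of 10 equal bins of probe sets by mean signal and -0.10 in bin 9, and after quantile normalization every bin had a median between 0.00 and 0.04. Quantile normalization gave 603 called probe sets, 213 higher and 390 lower.

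**Figure D1:**
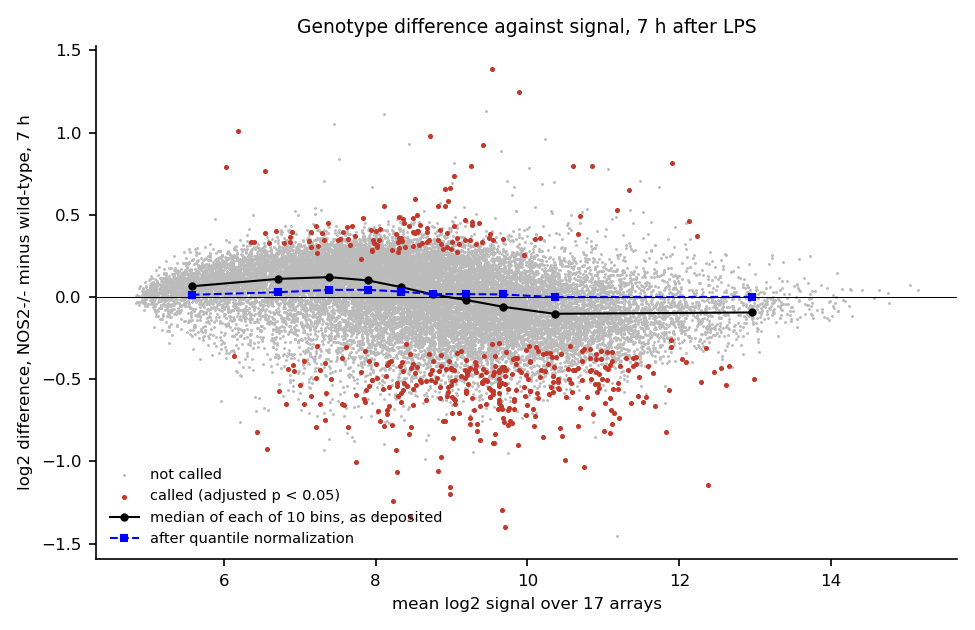
Log2 difference between NOS2-/- and wild-type lungs at 7 h (vertical axis) against mean log2 signal over the 17 arrays (horizontal axis), 1 point per probe set, with the 454 called probe sets in red. The black line joins the medians of the 10 bins as deposited, from 0.12 in bin 3 to -0.10 in bin 9, and the blue line the medians after quantile normalization, which stay between 0.00 and 0.04.

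The Nos2 probe set did not distinguish the genotypes at 7 h. Its log2 signal was 8.97, 9.0 and 8.85 in NOS2-/- lungs and 8.93, 9.0 and 9.06 in wild-type lungs, and the groups overlapped (difference -0.06 ± 0.16, SE, adjusted p = 0.843). At 22 h it read 9.20, 9.25 and 8.99 in NOS2-/- lungs and 8.80, 8.19 and 8.48 in wild-type lungs. After saline it was 8.29 in the NOS2-/- lung and 7.75 to 8.47 in wild-type lungs. A probe outside the deleted segment would not report a knockout, and where this probe set lies relative to the deletion was not tested, so these signals do not check the labels. The other synthases and the enzymes of the tetrahydrobiopterin cofactor gave no call at 7 h. None of 12 measured genes of that list was called by limma. At an unadjusted p under 0.05, as 22.4% of all probe sets were, 1 was lower. Without the outlying 22 h array 2 were called lower, beside 28.7% of all genes called. Their median difference was -0.06, beside 0.04 over all genes.

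The largest fall among called genes was in Ubd, which encodes a ubiquitin-like modifier that is induced by inflammatory cytokines. Its log2 signal was 11.19, 10.89 and 10.67 in NOS2-/- lungs, against 12.06, 12.69 and 12.19 in wild-type lungs. Every NOS2-/- value was below every wild-type value, and the mean was 2.64-fold lower (-1.40 ± 0.18, SE, adjusted p = 0.00297, and 0.000182 without the outlying array). Ncf1, the organizer subunit of the phagocyte NADPH oxidase, had the smallest adjusted p of the genes named here. It stood at 9.61, 9.44 and 9.46 in NOS2-/- lungs, against 10.86, 10.81 and 10.71 in wild-type lungs. It was 2.45-fold lower (-1.29 ± 0.10, SE, adjusted p = 4.52e-05), and its second probe set was lower by a difference of -1.06 (adjusted p = 0.00797). The bases before the RefSeq starts of both genes (GRCm38.p6) are shown because matches to motifs of LPS-activated factors stand close to the start, with those matches in capitals.
Ncf1, chr5:134229626-134229875, minus strand: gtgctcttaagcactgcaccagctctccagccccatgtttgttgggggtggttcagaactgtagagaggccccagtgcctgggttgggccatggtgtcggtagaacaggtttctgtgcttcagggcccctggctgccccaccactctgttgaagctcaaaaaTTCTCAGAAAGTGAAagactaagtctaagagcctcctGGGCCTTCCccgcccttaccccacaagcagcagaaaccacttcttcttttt
Ubd, chr17:37193642-37193891, plus strand: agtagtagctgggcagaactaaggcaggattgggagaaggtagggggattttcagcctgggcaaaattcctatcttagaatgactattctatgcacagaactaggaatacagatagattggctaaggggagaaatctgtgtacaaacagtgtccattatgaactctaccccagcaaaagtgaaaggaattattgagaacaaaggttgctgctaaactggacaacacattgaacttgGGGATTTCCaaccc
In Ncf1 a match to the STAT motif TTCNNNGAA begins 88 bases before the start and overlaps a match to the interferon-response core GAAANNGAA that begins 82 bases before it. A match to the NF-kB motif GGGNNTTCC begins 51 bases before the start of Ncf1 and 14 bases before that of Ubd. Of 32851 RefSeq windows of the same length, from 250 bases before to 50 after the start and read on both strands, 8.3% hold the STAT motif, 8.56% the interferon-response core and 5.82% the NF-kB motif. Among measured genes, 1.51% of those with the NF-kB motif, 1.68% with the STAT motif and 2.34% with the interferon-response core were called lower. Of measured genes with any window 1.55% were. These motifs are common, and a match is a description of the letters.

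Genes of neutrophils and other phagocytes were prominent among the falls. Itgam, the CD11b chain of the complement receptor on myeloid cells, was at 9.20, 8.99 and 8.63 in NOS2-/- lungs, against 10.29, 9.96 and 10.17 in wild-type lungs (-1.20 ± 0.20, SE, adjusted p = 0.0121). Mmp8, the neutrophil collagenase, was at 9.84, 9.74 and 9.69 in NOS2-/- lungs, against 10.69, 10.56 and 10.69 in wild-type lungs (-0.89 ± 0.12, SE, adjusted p = 0.00332). Trem1, a receptor that amplifies responses to LPS in myeloid cells, was at 9.55, 9.61 and 9.45 in NOS2-/- lungs, against 10.37, 10.26 and 10.29 in wild-type lungs (-0.77 ± 0.13, SE, adjusted p = 0.0106). None of these 3 genes had overlapping groups. Igsf6, an immunoglobulin superfamily member expressed in myeloid cells, fell by 0.93 on the log2 scale (adjusted p = 0.00297), and Bst1, an NAD-consuming ectoenzyme of myeloid and stromal cells, fell by 0.87 (adjusted p = 0.00665).

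By list, 7 of 16 measured neutrophil genes were called, all of them lower, beside 2.19% of all genes. They were Itgam, Mmp8, Trem1, Mmp9 (-0.61, adjusted p = 0.0361), Wfdc21 (-0.56, adjusted p = 0.00956), Clec4d (-0.54, adjusted p = 0.0367) and Csf3r, the receptor for granulocyte colony-stimulating factor (-0.50, adjusted p = 0.0282). The median over the list was -0.33, beside 0.04 over all genes, and -0.26 after quantile normalization. The list's median signal ran from 10.87 to 11.21 over the NOS2-/- arrays and from 11.26 to 11.41 over the wild-type arrays. Several other defining neutrophil genes were not called. The differences were -0.17 for S100a9 and -0.15 for S100a8, the abundant cytosolic calprotectin subunits, and -0.04, 0.07 and 0.41 for the granule genes Lcn2, Ltf and Camp. In the list of the phagocyte oxidase and granules, 5 of 18 genes were lower and none higher. Besides Ncf1, Mmp8 and Mmp9 these were Rac2, the GTPase of the oxidase (-0.53, adjusted p = 0.0123), and Ncf4, another of its cytosolic subunits (-0.50, adjusted p = 0.0265). The proteases and peroxidase of primary granules did not pass and had differences of 0.40 (Mpo), 0.33 (Ctsg) and 0.30 (Elane). Among monocyte and macrophage genes 3 of 17 were lower: Itgam and the Fc receptors Fcgr4 (-0.50, adjusted p = 0.00932) and Fcgr3 (-0.43, adjusted p = 0.0443). The median of that list was -0.11. No gene of 11 in the alveolar macrophage list was called by limma. At an unadjusted p under 0.05, as 22.4% of all probe sets were, 4 were lower, and 4 were called lower without the outlying 22 h array. Without that array the calls were 8 lower for neutrophils, 6 lower and 3 higher for the oxidase and granules, and 5 lower for monocytes and macrophages, beside 28.7% of all genes. Leaving out single 7 h arrays left 4 to 63 calls over all 42 lists together, against 41 with every array, the fewest without NOS2-/- replicate 3 and the most without NOS2-/- replicate 1.

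**Figure D2:**
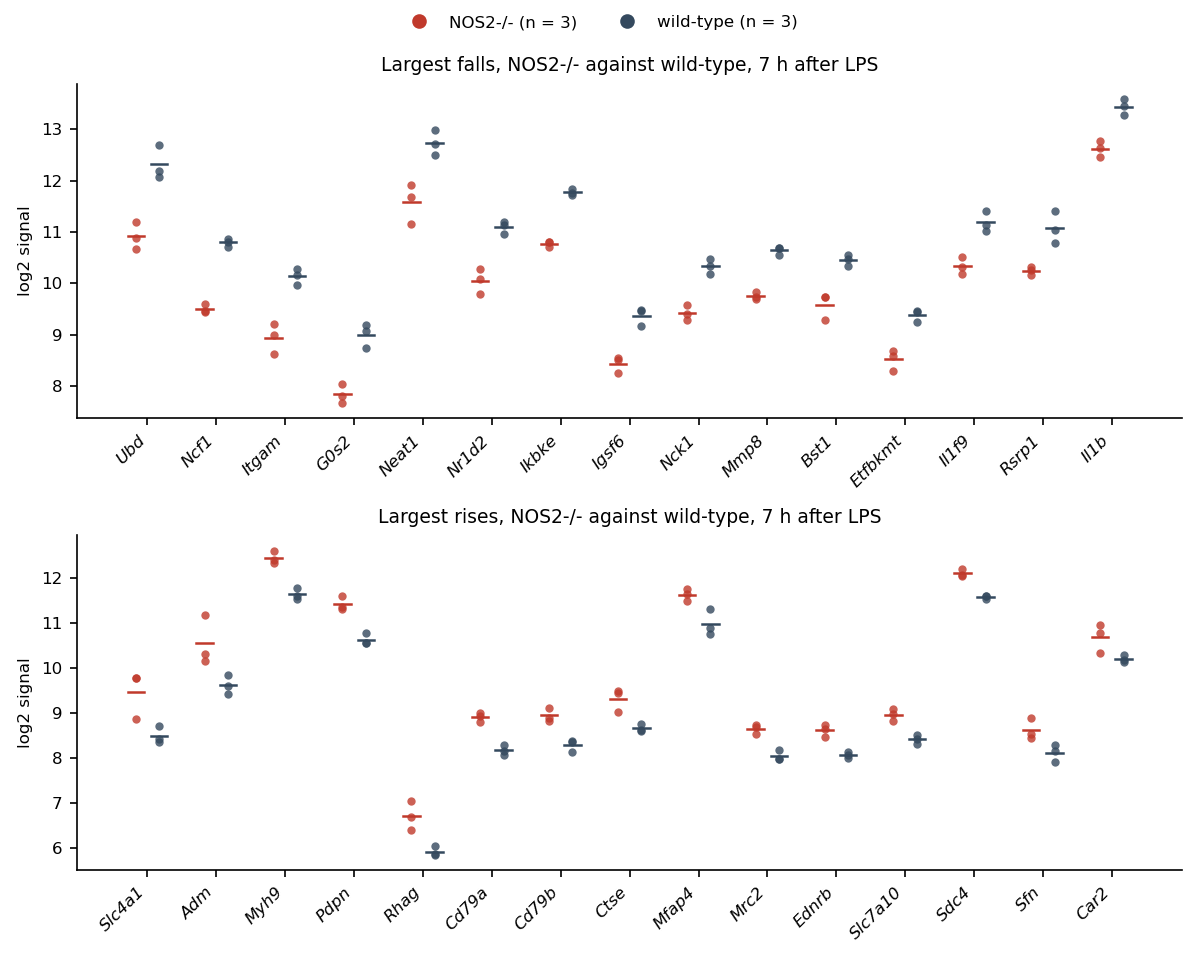
Log2 signal (vertical axis) of the 15 genes with the largest falls (top) and the 15 with the largest rises (bottom) that were called without overlap between groups, 1 point per array and a bar at the mean, with NOS2-/- in red left of wild-type in dark blue (n = 3 each). Ubd (10.67 to 11.19 in NOS2-/- lungs, 12.06 to 12.69 in wild-type lungs) has the largest fall and Slc4a1 (8.85 to 9.78 in NOS2-/- lungs, 8.35 to 8.71 in wild-type lungs) the largest rise.

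Other leading falls were in genes of several kinds. G0s2, an inhibitor of the lipase that starts triglyceride breakdown, was at 8.05, 7.68 and 7.82 in NOS2-/- lungs, against 9.20, 9.07 and 8.74 in wild-type lungs (-1.16 ± 0.15, SE, adjusted p = 0.00332). Neat1, the long noncoding RNA that scaffolds nuclear paraspeckles, was at 11.90, 11.16 and 11.68 in NOS2-/- lungs, against 12.98, 12.70 and 12.49 in wild-type lungs (-1.15 ± 0.16, SE, adjusted p = 0.00574). Ikbke, a kinase of the pathway that activates interferon-regulatory factors, was at 10.81, 10.80 and 10.71 in NOS2-/- lungs, against 11.72, 11.83 and 11.75 in wild-type lungs (-0.99 ± 0.10, SE, adjusted p = 0.000469). In each of these 3 genes all NOS2-/- lungs were below all wild-type lungs. Il1f9, an interleukin-1 family cytokine, fell by 0.85 on the log2 scale (adjusted p = 0.00627), Rsrp1 by 0.83 (adjusted p = 0.00932) and Etfbkmt, a lysine methyltransferase of mitochondria, by 0.86 (adjusted p = 0.0434). Nck1, an adaptor that links receptors to the cytoskeleton, fell by 0.90 at one probe set (adjusted p = 0.000469), and its other probe set gave 0.17 (adjusted p = 0.302). After saline, the single NOS2-/- lung was below every wild-type lung for Nck1, Etfbkmt, Nr1d2, Rsrp1, Neat1, Ikbke and Mmp8. Etfbkmt was at 9.07 against 9.47 to 9.92, Nr1d2 at 10.97 against 11.28 to 11.47 and Neat1 at 13.36 against 13.51 to 13.71. That lung was within the wild-type range for Ubd, Ncf1, G0s2, Bst1 and Il1b, and above it for Itgam, Igsf6 and Il1f9. Of the 30 leading genes, 9 were called in each of the 6 removals of a single 7 h array: Ubd, Ncf1, G0s2, Neat1, Ikbke, Igsf6, Nck1, Mmp8 and Il1f9. All 9 were falls. Among the falls, Bst1 and Rsrp1 were called in 5 removals, Itgam in 2, and Il1b, Nr1d2 and Etfbkmt in 1 each. Among the leading rises, described below, Ednrb was called in 2 removals, Pdpn in 0 and each of the others in 1. The fewest kept after 1 removal were 10, without NOS2-/- replicate 3 or without wild-type replicate 1. Without the outlying 22 h array, all 30 were called in each of these removals.

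Several genes of the unfolded protein response were lower in NOS2-/- lungs. This response is set off by misfolded proteins in the endoplasmic reticulum, where the sensors ATF6, IRE1 and PERK raise chaperones, folding enzymes and parts of the degradation machinery. Of 26 measured genes of the unfolded protein and integrated stress response, 6 were called, all lower, beside 2.19% of all genes, and their list had a median of -0.20 (-0.15 after quantile normalization). Hsp90b1, the Hsp90 chaperone of the endoplasmic reticulum, was at 10.60, 10.59 and 10.44 in NOS2-/- lungs, against 11.71, 11.23 and 11.13 in wild-type lungs (-0.81 ± 0.17, SE, adjusted p = 0.0281). Creld2, a secreted protein of the stress response, was at 8.83, 8.65 and 8.53 in NOS2-/- lungs, against 9.42, 9.37 and 9.48 in wild-type lungs (-0.75 ± 0.13, SE, adjusted p = 0.0147). Dnajb9, a co-chaperone, was at 10.95, 10.46 and 10.69 in NOS2-/- lungs, against 11.38, 11.36 and 11.29 in wild-type lungs (-0.64 ± 0.15, SE, adjusted p = 0.043). The groups did not overlap in any of these 3 genes. Manf, a secreted resident protein of the reticulum, fell by 0.52 (adjusted p = 0.0276), Ddit3, the transcription factor CHOP, by 0.44 (adjusted p = 0.043) and Dnajc3, a co-chaperone of Hspa5, by 0.36 (adjusted p = 0.0418). All 5 probe sets of Dnajc3 had negative differences. Hspa5, the main chaperone of the reticulum, was at 12.94, 12.82 and 12.82 in NOS2-/- lungs, against 13.30, 13.20 and 13.13 in wild-type lungs, and was not called (-0.35 ± 0.14, SE, adjusted p = 0.169, and 0.0391 without the outlying array). Members such as Sdf2l1 (-0.00), Ppp1r15a (-0.01), Trib3 (-0.03) and Pdia4 (0.06) had differences near 0. When the outlying 22 h array was left out, 12 of the 26 genes were lower and 1 higher, beside 28.7% of all genes. After quantile normalization 4 were lower: Ddit3 (adjusted p = 0.0656) and Dnajc3 (adjusted p = 0.0902) were no longer called.

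**Figure D3:**
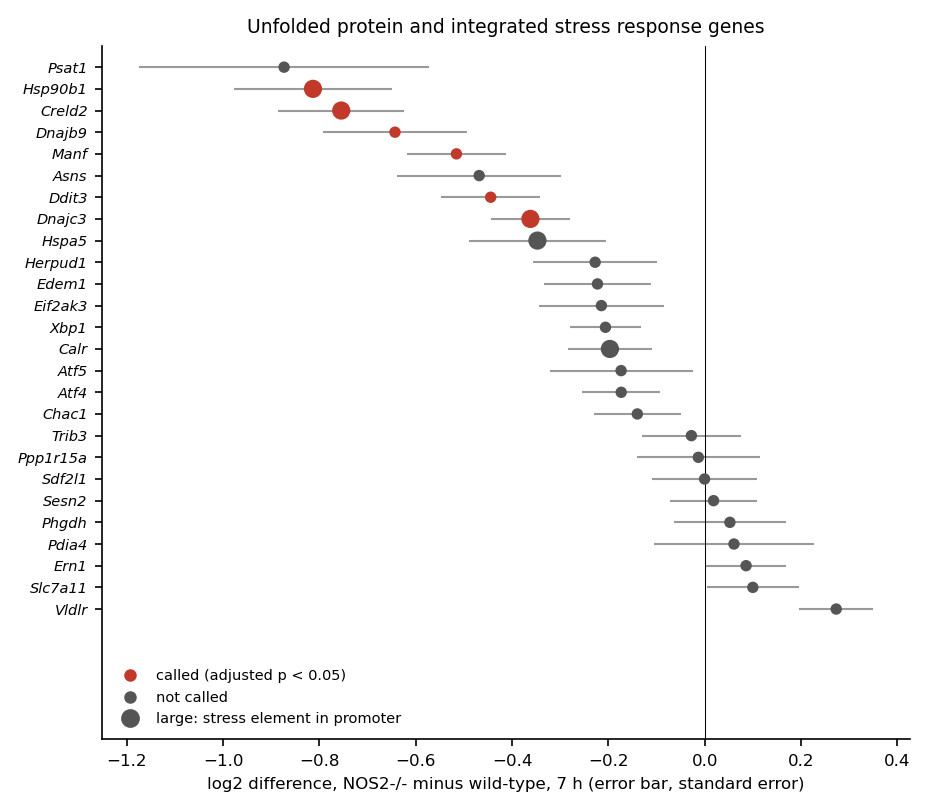
Log2 difference between NOS2-/- and wild-type lungs at 7 h (horizontal axis, error bars 1 SE) for the 26 measured genes of the unfolded protein and integrated stress response. Red points mark the 6 called genes, all to the left of 0, and large points the genes whose promoter window holds the stress element (5 of 25 with a window).

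The endoplasmic reticulum stress element is the DNA motif through which ATF6, with NF-Y, activates chaperone genes, and it reads CCAAT, 9 bases, CCACG. It was looked for after the values had been seen. Only 39 of 32851 RefSeq promoter windows (0.119%) hold it on either strand, among them 5 of the 25 list genes with a window: Hsp90b1, Creld2, Dnajc3, Hspa5 and Calr. Of 18 measured genes on the array whose window holds it, 4 were called and all 4 were lower in NOS2-/- lungs (22.2%), while 153 of 9887 measured genes with any window were lower (1.55%). The fourth gene was Pdia6, a disulfide isomerase of the reticulum that was not in the list. It was at 10.92, 10.74 and 10.62 in NOS2-/- lungs, against 11.41, 11.21 and 11.15 in wild-type lungs (-0.50 ± 0.11, SE, adjusted p = 0.0331), and its second probe set gave 0.26 (adjusted p = 0.135). With that array left out 6 of the 18 genes were lower (33.3%) and 2 higher, where 14.2% of genes with any window were lower. The others had differences down to -0.35 (Hspa5) and up to 0.45 (Ptgdr2, a prostaglandin D2 receptor, adjusted p = 0.054). The bases before the RefSeq starts (GRCm38.p6) of the 4 called genes are shown with both parts of each element in capitals; on the opposite strand it reads CGTGG, 9 bases, ATTGG.
Hsp90b1, chr10:86705445-86705694, minus strand: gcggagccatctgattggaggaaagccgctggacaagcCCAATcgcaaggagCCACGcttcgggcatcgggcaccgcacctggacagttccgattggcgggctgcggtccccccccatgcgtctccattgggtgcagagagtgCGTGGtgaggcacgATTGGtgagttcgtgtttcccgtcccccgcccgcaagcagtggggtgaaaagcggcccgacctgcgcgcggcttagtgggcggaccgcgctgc
Creld2, chr15:88819396-88819645, plus strand: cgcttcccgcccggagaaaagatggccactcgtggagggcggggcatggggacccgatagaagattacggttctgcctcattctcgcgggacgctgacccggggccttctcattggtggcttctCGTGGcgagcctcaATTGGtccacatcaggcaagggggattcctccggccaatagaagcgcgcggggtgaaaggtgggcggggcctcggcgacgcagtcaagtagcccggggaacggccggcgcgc
Dnajc3, chr14:118937682-118937931, plus strand: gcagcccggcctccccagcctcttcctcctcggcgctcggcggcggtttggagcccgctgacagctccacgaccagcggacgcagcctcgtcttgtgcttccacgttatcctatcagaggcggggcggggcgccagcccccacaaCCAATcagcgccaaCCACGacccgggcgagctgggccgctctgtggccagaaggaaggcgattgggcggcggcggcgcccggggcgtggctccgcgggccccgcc
Pdia6, chr12:17266339-17266588, plus strand: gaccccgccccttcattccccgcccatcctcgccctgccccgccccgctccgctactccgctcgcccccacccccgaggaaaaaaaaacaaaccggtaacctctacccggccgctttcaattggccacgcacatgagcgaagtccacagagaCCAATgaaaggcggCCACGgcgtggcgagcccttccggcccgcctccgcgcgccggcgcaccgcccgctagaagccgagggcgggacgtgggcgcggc
Hsp90b1 holds 2 elements of opposite orientation, which begin 212 and 107 bases before the start. The single elements begin 126 bases before the start in Creld2, 105 in Dnajc3 and 98 in Pdia6. A sequence match does not show that a factor was bound in these lungs.

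Output genes of the circadian clock, Nr1d2 and Tef, were among the falls, while the clock list as a whole had no common direction. In the clock, BMAL1 (Arntl) and CLOCK drive the nuclear receptors of the Rev-erb family and the PAR-domain factors, and Rev-erb proteins repress Arntl in turn. Nr1d2, which encodes Rev-erb beta, was at 10.29, 9.80 and 10.09 in NOS2-/- lungs, against 10.96, 11.19 and 11.13 in wild-type lungs, without overlap (-1.03 ± 0.20, SE, adjusted p = 0.0253), and a second probe set gave -0.83 (adjusted p = 0.0169). Tef, a PAR-domain factor, was at 11.23, 10.98 and 11.09 in NOS2-/- lungs, against 11.81, 11.65 and 11.65 in wild-type lungs (-0.61 ± 0.11, SE, adjusted p = 0.0145). Dbp, another PAR-domain factor, was not called at its brighter probe set (-0.60, adjusted p = 0.091) and was called at the other (-1.34, adjusted p = 0.0222). Per2 behaved likewise, with -0.23 at the brighter probe set (adjusted p = 0.363) and -1.24 at the other (adjusted p = 0.0238). Arntl itself was at 8.44, 8.70 and 8.29 in NOS2-/- lungs, against 8.09, 8.02 and 8.07 in wild-type lungs, and did not pass the test (0.41, adjusted p = 0.0648). In all, 2 of 17 clock genes were called, both lower, beside 2.19% of all genes, and the list median was -0.01. At an unadjusted p under 0.05, as 22.4% of all probe sets were, 5 were lower and 4 higher, and leaving out the outlying array gave 5 lower and 3 higher calls, beside 28.7% of all genes. The hour of day of the harvest was not stated.

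Among the rises, genes of red blood cells and B cells recurred. Slc4a1, the anion exchanger band 3 of the red cell membrane, was at 8.85, 9.78 and 9.77 in NOS2-/- lungs, against 8.71, 8.35 and 8.42 in wild-type lungs (0.98 ± 0.20, SE, adjusted p = 0.0308). Rhag, a red cell ammonia channel, was at 6.39, 7.04 and 6.68 in NOS2-/- lungs, against 6.03, 5.86 and 5.85 in wild-type lungs (0.79 ± 0.17, SE, adjusted p = 0.0331). NOS2-/- replicate 1 was the lowest of its group in both, and the groups did not overlap. Cd79a, a signalling chain of the B cell receptor, was at 8.78, 8.93 and 9.0 in NOS2-/- lungs, against 8.29, 8.15 and 8.06 in wild-type lungs (0.74 ± 0.12, SE, adjusted p = 0.0127). Its partner Cd79b was at 8.82, 9.11 and 8.89 in NOS2-/- lungs, against 8.38, 8.35 and 8.12 in wild-type lungs (0.66 ± 0.14, SE, adjusted p = 0.0337). Both groups were well below the saline lungs, where Cd79a read 10.45 in the NOS2-/- lung and 9.95 to 10.30 in wild-type lungs.

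The cell type lists gave the same genes a wider frame. Of 12 erythroid genes 3 were higher (Slc4a1, Rhag and the carbonic anhydrase Car2, 0.49, adjusted p = 0.0492) and none lower, beside 2.19% of all genes called, with a median of 0.33. Car2 was at 11.03 in the saline NOS2-/- lung and 10.90 to 10.97 in saline wild-type lungs. Of 11 B cell genes 2 were higher, and all 11 differences were above 0, with a median of 0.34. Of 19 T and NK cell genes 1 was called, the CD3 chain Cd3d (0.33, adjusted p = 0.043), and 18 differences were above 0, with a median of 0.17. The median signal of the B cell list was 8.82 to 8.93 over the NOS2-/- arrays and 8.35 to 8.44 over the wild-type arrays. That of the T and NK cell list was 8.68 to 8.69 in NOS2-/- lungs and 8.37 to 8.47 in wild-type lungs, and that of the erythroid list was 8.59 to 8.87 in NOS2-/- lungs and 8.27 to 8.49 in wild-type lungs. Leaving out the outlying array gave 8 erythroid genes higher and 1 lower, 6 B cell genes higher and 9 T and NK cell genes higher, beside 28.7% of all genes called. Lists of cells that hardly occur in lung had positive medians too. The median was 0.28 for 11 liver genes, 0.20 for 13 squamous epithelium genes and 0.17 for 19 skeletal muscle genes, with no call by limma in any of them. At an unadjusted p under 0.05, as 22.4% of all probe sets were, 5, 5 and 3 of their genes were higher and none lower, and 7, 6 and 3 were called higher without the outlying array. The list medians of these 3 tissues lay between 7.16 and 8.12 in all 6 lungs, in the range of signal where all probe sets had a positive median. After quantile normalization the medians were 0.25 for liver, 0.17 for squamous epithelium and 0.09 for skeletal muscle, and 0.34 for B cells, 0.33 for erythroid cells and 0.15 for T and NK cells. What part cell numbers and signal range have in the lymphoid and erythroid values was not tested.

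**Figure D4:**
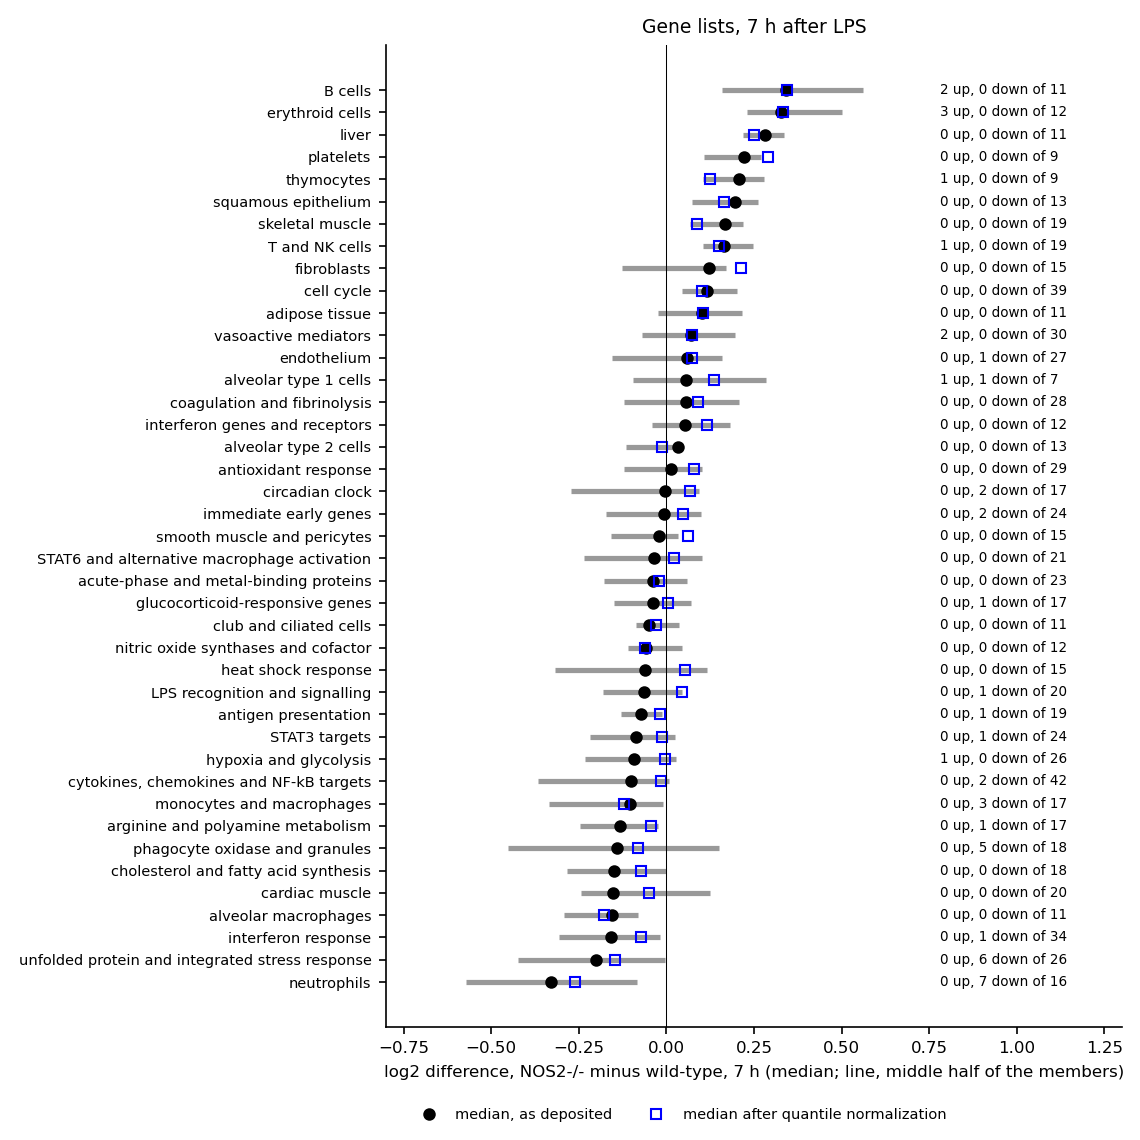
Median log2 difference between NOS2-/- and wild-type lungs at 7 h (horizontal axis) for the gene lists with 7 or more measured members (rows), as deposited (black circles, with a grey line over the middle 50% of the members) and after quantile normalization (blue squares), with the counts of called members at the right. Neutrophils have the lowest median (-0.33, 0 up and 7 down of 16) and B cells the highest (0.34, 2 up and 0 down of 11).

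Single genes of vessels, epithelium and matrix rose as well. Adm encodes adrenomedullin, a vasodilator peptide that is induced by hypoxia and LPS. It was at 10.16, 11.17 and 10.29 in NOS2-/- lungs, against 9.42, 9.60 and 9.84 in wild-type lungs (0.92 ± 0.22, SE, adjusted p = 0.0456, and 0.00299 without the outlying array). NOS2-/- replicate 2 was the highest, and the groups did not overlap. Ednrb, the endothelin B receptor, was at 8.45, 8.64 and 8.74 in NOS2-/- lungs, against 8.06, 7.99 and 8.12 in wild-type lungs (0.56 ± 0.09, SE, adjusted p = 0.0114). These were the 2 called genes of 30 vasoactive mediators, whose median was 0.07, beside 2.19% of all genes called. Without the outlying array 4 were higher and 1 lower, a smaller share than the 28.7% of all genes. Pdpn, the podoplanin of alveolar type 1 and lymphatic endothelial cells, was at 11.59, 11.31 and 11.35 in NOS2-/- lungs, against 10.54, 10.56 and 10.76 in wild-type lungs (0.80 ± 0.17, SE, adjusted p = 0.0337). The 7 measured type 1 cell genes had no common direction, with a median of 0.06. Cldn18, a tight junction protein, was at 11.21, 11.33 and 11.34 in NOS2-/- lungs, against 10.93, 10.76 and 10.74 in wild-type lungs, and was not called (0.48, adjusted p = 0.0579, and 0.00731 without the outlying array). Rtkn2 was lower (-0.69, adjusted p = 0.0492), and Ager, the receptor that defines these cells, was at 12.64 to 12.75 in NOS2-/- lungs and 12.51 to 12.74 in wild-type lungs. Mfap4, a microfibril protein of the matrix, was at 11.49, 11.75 and 11.64 in NOS2-/- lungs, against 11.29, 10.88 and 10.75 in wild-type lungs (0.65 ± 0.15, SE, adjusted p = 0.0443). Sdc4, the proteoglycan syndecan-4, was at 12.07, 12.20 and 12.03 in NOS2-/- lungs, against 11.60, 11.53 and 11.59 in wild-type lungs (0.53 ± 0.11, SE, adjusted p = 0.0339). Its dimmer probe set had the largest rise of any called probe set (1.39, adjusted p = 0.00297). Myh9, the heavy chain of nonmuscle myosin, rose by 0.81 at its brightest probe set (adjusted p = 0.0266). Its other probe sets gave 0.67, 0.19 and 0.16 and were not called (adjusted p = 0.0811, 0.133 and 0.264). Mrc2, an endocytic collagen receptor, rose by 0.60 (adjusted p = 0.0335). Slc7a10, an amino acid transporter, rose by 0.55 (adjusted p = 0.0244) and Sfn, a 14-3-3 protein of epithelia, by 0.50 (adjusted p = 0.0437). Ctse, the protease cathepsin E, rose by 0.66 at one probe set (adjusted p = 0.0335), and the other gave -0.05 (adjusted p = 0.873). After saline, the single NOS2-/- lung was above every wild-type lung for Pdpn, Mfap4, Mrc2, Slc7a10, Sfn and, narrowly, Sdc4. Pdpn was at 11.21 against 10.05 to 10.92, Mfap4 at 12.37 against 11.46 to 11.82 and Mrc2 at 9.89 against 8.75 to 9.11. Slc7a10 was at 10.70 against 9.26 to 9.74 and Sfn at 8.66 against 7.96 to 8.20. For Adm, Ednrb, Ctse and Myh9 (12.12 against 11.58 to 12.22) that lung was within the wild-type range.

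Cytokines, chemokines and interferon-induced genes, the core of the LPS response, had 3 calls at 7 h. Of 42 cytokines, chemokines and NF-kB targets 2 were called, both lower, beside 2.19% of all genes, with a list median of -0.10 (-0.02 after quantile normalization). At an unadjusted p under 0.05, as 22.4% of all probe sets were, 12 were lower and 2 higher. Il1b, the fever-inducing cytokine interleukin-1 beta, was at 12.76, 12.45 and 12.62 in NOS2-/- lungs, against 13.58, 13.28 and 13.44 in wild-type lungs, 1.77-fold lower and without overlap (-0.82 ± 0.15, SE, adjusted p = 0.0234). Cxcl13, a B cell chemokine, was at 10.42, 10.65 and 10.44 in NOS2-/- lungs, against 11.25, 11.10 and 10.98 in wild-type lungs (-0.61 ± 0.11, SE, adjusted p = 0.0145). Of 34 interferon-response genes 1 was called, the transcription factor Irf1, at 12.99, 12.90 and 12.81 in NOS2-/- lungs, against 13.42, 13.37 and 13.29 in wild-type lungs (-0.46 ± 0.07, SE, adjusted p = 0.00797). The median of that list was -0.16 (-0.07 after quantile normalization), and 7 genes were lower and 1 higher at an unadjusted p under 0.05. Cxcl10, a chemokine for T cells, overlapped between the groups at a high level, at 13.55, 13.51 and 13.74 in NOS2-/- lungs and 13.58, 13.67 and 13.65 in wild-type lungs. Its difference was -0.03 (95% interval -0.33 to 0.27, adjusted p = 0.909). When the outlying array was left out, 13 of the 42 cytokine genes were lower and 2 higher, and 8 of the 34 interferon-response genes were lower and 1 higher, beside 28.7% of all genes.

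At 22 h most called members of the same lists were higher in NOS2-/- lungs. In the NOS2-/- minus wild-type comparison at 22 h, 3720 of 22626 probe sets were called (16.4%), 23 of the cytokine genes were higher and 4 lower, and 20 of the interferon-response genes were higher and none lower. Their medians were 0.53 and 0.50. The difference at 7 h minus that at 22 h, which compares the times directly, was called in 687 probe sets (3.04%). Of these probe sets 564 were negative and 123 positive, so most calls over the whole array had the same direction. The difference between the times was called and negative in 19 of the 42 cytokine genes and 13 of the 34 interferon-response genes, and positive in none of them. The outlying array is in the wild-type group at 22 h. Without it, 6020 probe sets were called at 22 h and 1628 between the times, 1025 of these negative and 603 positive. Of the cytokine genes 24 were then higher and 3 lower at 22 h (median 0.44), and of the interferon-response genes 17 higher and 0 lower (median 0.33). Between the times 22 cytokine genes were called, 21 of them negative, and 17 interferon-response genes, all negative. Cxcl10 read 13.52, 13.49 and 13.50 in NOS2-/- lungs at 22 h, against 11.37, 10.81 and 11.37 in wild-type lungs (2.32, adjusted p = 3.25e-07), and its difference between the times was -2.35 (adjusted p = 3.97e-05). The NOS2-/- lungs were thus as high at 22 h as at 7 h, while the wild-type lungs were lower at 22 h. Cxcl1, a chemokine for neutrophils, was at 11.96, 12.43 and 11.97 in NOS2-/- lungs at 7 h, against 12.14, 12.38 and 12.46 in wild-type lungs, and at 13.14, 12.60 and 12.45 in NOS2-/- lungs at 22 h, against 11.20, 10.47 and 11.07 in wild-type lungs. Ccl17, a chemokine for T helper cells, had differences of -0.37 at 7 h and 1.57 at 22 h.

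Il1b, Irf1 and Trem1 differed in 1 direction at 7 h and not, or in the other, at 22 h. Trem1 was lower at 7 h (-0.77), and at 22 h it was at 10.28, 10.21 and 10.31 in NOS2-/- lungs, against 9.90, 9.23 and 9.57 in wild-type lungs (0.70, adjusted p = 0.00145). The difference between the times was -1.47 (adjusted p = 0.000606). Irf1 was at 13.02, 12.91 and 12.96 in NOS2-/- lungs at 22 h, against 12.33, 12.30 and 12.30 in wild-type lungs (0.65, adjusted p = 2.7e-05, difference between the times -1.11, adjusted p = 5.68e-05). Il1b was at 12.88, 12.49 and 12.56 in NOS2-/- lungs at 22 h and 12.68, 12.40 and 12.30 in wild-type lungs (0.18, adjusted p = 0.474), and its difference between the times was -1.0 (adjusted p = 0.0225). Cd79a, higher at 7 h, had a difference of -0.01 at 22 h (difference between the times 0.74, adjusted p = 0.0332). The 2 times share no arrays, but all 4 groups share 1 estimate of the spread.

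Most other probe sets called at 7 h had the same direction at 22 h. Of the 454 called probe sets 411 (90.5%) had the same sign at 22 h, while 55.1% of all probe sets did. Both higher (113 of 119) and lower (298 of 335) calls took part. At both times 225 probe sets were called in the same direction, 47 higher and 178 lower, which is 49.6% of the calls at 7 h and 6.05% of those at 22 h, and 6 were called in opposite directions. Without the outlying 22 h array 88.7% of the probe sets called at 7 h and 74.1% of all probe sets had the same sign, and 2248 were called at both times in the same direction and 117 in opposite directions.

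Ncf1 and Neat1 were lower at both times, and Adm, Pdpn and Mfap4 higher. Ncf1 was at 9.33, 9.40 and 9.47 in NOS2-/- lungs at 22 h, against 10.69, 10.50 and 10.43 in wild-type lungs, a difference of -1.13 that resembled the -1.29 at 7 h (difference between the times -0.16, adjusted p = 0.512). After saline it was at 8.71 in the NOS2-/- lung and 8.52 to 8.93 in wild-type lungs. Igsf6, Ikbke, Itgam and Cebpg, a CCAAT/enhancer-binding factor, also had falls at both times, of -0.93, -0.99, -1.20 and -0.79 at 7 h and of -1.35, -1.08, -1.11 and -1.35 at 22 h. Neat1 differed more at 22 h (-2.29), where it was at 10.49, 10.44 and 10.54 in NOS2-/- lungs, against 12.95, 12.79 and 12.59 in wild-type lungs (difference between the times 1.14, adjusted p = 0.0158). Adm was at 11.59, 11.69 and 11.67 in NOS2-/- lungs at 22 h, against 9.03, 8.50 and 9.23 in wild-type lungs, so that its difference of 0.92 at 7 h was followed by 2.73 at 22 h (difference between the times -1.80, adjusted p = 0.00628). Pdpn had 0.80 at 7 h and 1.86 at 22 h (difference between the times -1.07, adjusted p = 0.0268), and Mfap4 0.65 and 1.90 (-1.25, adjusted p = 0.00664). Hsp90b1 (-0.94, adjusted p = 0.0013), Creld2 (-0.82, adjusted p = 0.000675) and Pdia6 (-0.73, adjusted p = 0.000306) were lower at 22 h too. In the clock, Nr1d2 (-0.10, adjusted p = 0.769) and Tef (0.06, adjusted p = 0.728) were not called at 22 h, and the difference between the times was called for Tef (-0.67, adjusted p = 0.0255) and not for Nr1d2 (-0.93, adjusted p = 0.0893).

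**Figure D5:**
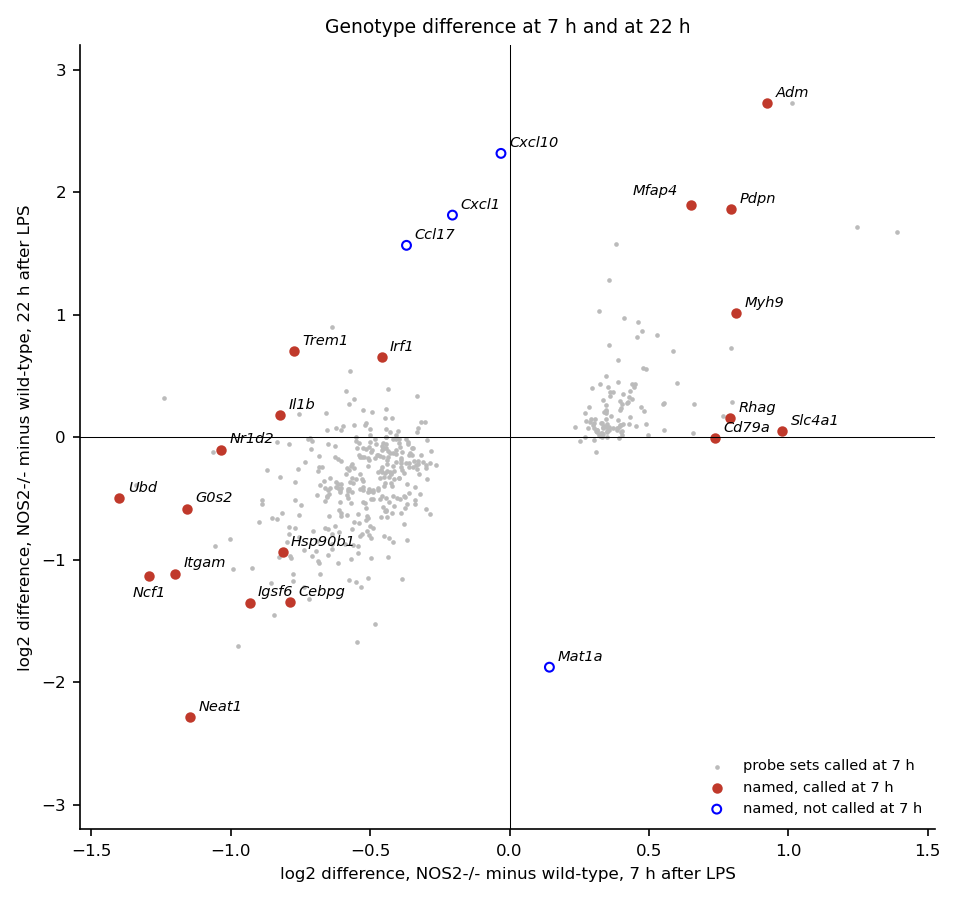
Log2 difference between NOS2-/- and wild-type lungs at 7 h (horizontal axis) and at 22 h (vertical axis) for the 454 probe sets called at 7 h (grey) and for named genes, called (red) or not called (open blue) at 7 h. Most points lie in the lower left or upper right (411 of 454 with the same sign), while Cxcl10 and Cxcl1 lie near 0 at 7 h and at 2.32 and 1.81 at 22 h.

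Genes next to Nos2 were counted apart, since a knockout allele made in other cells can carry flanking sequence of their strain. In the order of genes of GRCm38.p6 on chromosome 11, 12 of the 200 measured genes closest to Nos2 (100 on each side) were called (6%), 3 higher and 9 lower in NOS2-/- lungs, beside 2.19% of all genes. With 25 genes on each side 4 of 50 were called (8%), and with 200 on each side 14 of 400 (3.5%). With the outlying array left out, 62 of 200 were called (31%), beside 28.7%. Crlf3, the ninth measured gene on one side, was at 9.21, 9.26 and 9.32 in NOS2-/- lungs, against 9.84, 9.64 and 9.73 in wild-type lungs (-0.47 ± 0.11, SE, adjusted p = 0.0399). Ift20, the fourth on the other side, a transport protein of cilia, was at 7.83, 7.61 and 7.54 in NOS2-/- lungs, against 8.11, 8.08 and 7.97 in wild-type lungs (-0.39 ± 0.10, SE, adjusted p = 0.0499). Farther away were Srsf1, a splicing factor (-0.62, adjusted p = 0.0209), Tax1bp3 (-0.51, adjusted p = 0.0238), Txndc17 (-0.45, adjusted p = 0.0105), Septin4 (-0.37, adjusted p = 0.043), Appbp2 (-0.36, adjusted p = 0.0479) and Pipox, the peroxisomal sarcosine oxidase (0.35, adjusted p = 0.0446). Adap2 (0.27, adjusted p = 0.033), 11 measured genes away, and Sebox (0.31, adjusted p = 0.0489), 8 measured genes away on the side of Ift20, were the other 2 genes higher, and a second probe set of Adap2 gave -0.0041. Neighbourhood and loss of NOS2 cannot be told apart for these genes. Removing a single 7 h array left between 0 (NOS2-/- replicate 3) and 18 (NOS2-/- replicate 1) of the 200 called.

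Several other lists had 1 or 2 called genes, beside 2.19% of all genes. The immediate early genes had 2 of 24 lower, the growth response factor Egr2 (-0.62, adjusted p = 0.0171) and the shear-responsive factor Klf2 (-0.51, adjusted p = 0.0489). Among glucocorticoid-responsive genes 1 of 17 was lower, Tsc22d3, which encodes the leucine zipper GILZ (-0.56, adjusted p = 0.0269). A further probe set of Tsc22d3 was lower (-0.73, adjusted p = 0.0308), and the remaining one gave 0.06. In antigen presentation 1 of 19 was lower, the immunoproteasome subunit Psmb9 (-0.32, adjusted p = 0.0446). The endothelial list had 1 of 27 lower, Egfl7 (-0.69, adjusted p = 0.00681), with a median of 0.06. The thymocyte list had 1 of 9 higher, the chemokine receptor Ccr9 (0.36, adjusted p = 0.0401). No call by limma was made among 23 acute-phase and metal-binding proteins, 29 antioxidant genes, 15 heat shock genes, 39 cell cycle genes and 28 genes of coagulation and fibrinolysis. At an unadjusted p under 0.05 these lists had 5, 5, 5, 9 and 6 genes, in that order, beside 22.4% of all probe sets. Without the outlying 22 h array 1, 2, 0, 4 and 7 of them were called higher and 4, 3, 4, 4 and 3 lower, beside 28.7% of all genes. Lists of structural cells had no call by limma among 15 fibroblast genes, 15 smooth muscle and pericyte genes and 13 alveolar type 2 cell genes, and 3, 0 and 2 genes at an unadjusted p under 0.05. Without the outlying array these had 2, 0 and 1 genes higher and 1, 0 and 2 lower.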

How the data were processed

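Total RNA of whole lungs was hybridised to Affymetrix MOE430A arrays, 1 per sample, 17 in all. The authors corrected the background, normalized and summarised the probes with the affy package of Bioconductor (version and summary method not given in the sources used here), and the deposited values are log2 signals with 1 value per probe set. These were used as deposited. Normalization and summary can compress large differences, and precision is limited by how few arrays there were.

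The table held 22690 probe sets, from which 64 controls were removed. Names came from the platform annotation, brought to GRCm38.p6 symbols by gene ID: 20380 probe sets name 1 gene, 691 several and 1555 none, and 12369 of 12393 genes matched. A gene was represented by its probe set with the highest mean. A linear model with a mean for each of the 6 groups was fitted to the 17 arrays (R 4.3.3, limma 3.58.1), which left 11 residual beside 3.75 prior degrees of freedom. The Benjamini-Hochberg adjustment ran over 22626 probe sets, with calls at an adjusted p under 0.05. The fit was tested on simulated data whose spread came from both 7 h groups and the NOS2-/- LPS 22 h group. The wild-type LPS 22 h group, with its outlying array, was not part of that spread. Differences are NOS2-/- minus wild-type, with the SE of the moderated fit.

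Genes were named if they were Nos2, among the 15 largest rises or falls called without overlap, one of at most 4 members per list or 10 called neighbours of Nos2, or among up to 10 genes called at both times or between the times. Pdia6, Hspa5, Per2, Ptgdr2, Rpl27a, Erdr1, Nfkbia, Angptl4, Sebox and Adap2 and uncalled list members given as examples were chosen after their values were seen. The comparison and the 42 lists (827 genes, 732 measured) were chosen with earlier results of these data known. Some genes that the study names are not reported here. Promoter windows were RefSeq's (GRCm38.p6), and 65 of 85 genes looked up had one.

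Alternatives were quantile normalization, median subtraction, other sets of arrays, a signal filter at the 40th percentile, trended and weighted fits, a replicate block, single arrays left out, stricter thresholds, and other probe sets. The settings that leave out replicate 2 of wild-type LPS at 22 h together with quantile normalization or with a 7 h array were added after the data had been seen.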

Additional observations from a re-analysis of the deposited data

Results flagged for a closer look

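For 16 genes that the text names, the difference between NOS2-/- and wild-type lungs at 7 h was itself different from that at 22 h, by the test of the 7 h difference minus the 22 h difference at an adjusted p under 0.05 (limma). On the log2 scale, with a value below 0 meaning that NOS2-/- lungs were lower, relative to wild-type lungs, at 7 h than at 22 h, this was -2.35 for Cxcl10, -2.02 for Cxcl1, -1.94 for Ccl17, -1.80 for Adm, -1.47 for Trem1, -1.25 for Mfap4, -1.11 for Irf1, -1.07 for Pdpn, -1.0 for Il1b, -0.67 for Tef, -0.66 for Wfdc21 and -0.56 for Fcgr4. It was above 0 for Mat1a, the liver methionine adenosyltransferase (2.02), Neat1 (1.14), Cd79a (0.74) and Sebox (0.43). Mat1a was at 8.84, 9.44 and 8.61 in NOS2-/- lungs at 7 h and 8.60, 8.88 and 8.98 in wild-type lungs, and at 8.67, 8.72 and 8.42 in NOS2-/- lungs at 22 h, against 10.61, 10.47 and 10.35 in wild-type lungs. Most of these genes were chosen for their differences, so their number says little about how common such a change was.

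In 1 of the 81 genes looked at, a saline wild-type lung lay far from the other 3. For Arntl the gap between that lung and its nearest neighbour was 0.874 of the range of the 4 lungs, above Dixon's critical value for 4 samples. About 1 in 20 groups passes that value by chance.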

How the results depend on the processing

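Array weights gave 10562 called probe sets at 7 h (5839 higher, 4723 lower), the compared groups alone 5766 (2709 and 3057), the 12 LPS arrays alone 146 (42 and 104), subtraction of array medians 803 (188 and 615), and quantile normalization 213 higher. An adjusted p under 0.01 left 37 (6 and 31), and an added 2-fold difference 14 (3 and 11). Without replicate 2 of wild-type LPS at 22 h there were 6092 (2898 and 3194), and with quantile normalization as well 4785 (2243 and 2542). With each array left out in turn the count was 23 to 6092 (4 to 2898 higher, 19 to 3194 lower), and 2363 to 7645 (790 to 3829 and 1573 to 3816) where that replicate was left out too. Prior degrees of freedom were 3.75 in the main fit, 6.58 without that replicate and 6.13 in the compared groups alone. What made the counts differ was not tested.

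Members of lists called at 7 h were 41, against 218 in the compared groups alone, 24 in the LPS arrays, 352 with array weights, 174 with quantile normalization without the outlying array, and 4 to 213 with arrays left out. Of the 30 leading genes 10 to 30 were called with arrays left out. Genes next to Nos2 called were 12, against 56 in the compared groups alone, 5 in the LPS arrays, 7 with a trended and robust fit, 99 with array weights, 1 at an adjusted p under 0.01, 4 and 6 with 25 and 50 genes on each side, 48 with quantile normalization without the outlying array, and 0 to 62 with arrays left out.

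At 22 h 3720 probe sets were called, against 918 in the compared groups alone, 1907 at an adjusted p under 0.01, 273 at 2-fold, 2338 over genes, 5972 with quantile normalization without the outlying array, and 2323 to 6020 with arrays left out. The difference between the times was called in 687, against 370 in the LPS arrays, 2011 with array weights, 170 at an adjusted p under 0.01, 164 at 2-fold, 1628 with quantile normalization without the outlying array, and 243 to 1628 with arrays left out. Calls at both times in the same direction were 225, against 399 after median subtraction, 91 in the LPS arrays, 2701 with array weights, 23 at an adjusted p under 0.01, 6 at 2-fold, 1979 with quantile normalization without the outlying array, and 17 to 2248 with arrays left out.

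With the replicate number as a block 250 probe sets were called at 7 h (50 higher, 200 lower), 389 between the times and 4 next to Nos2. At 7 h, deviations of equally numbered samples from their group means correlated at 0.10, -0.01 and -0.02 over all probe sets. Whether samples of equal number were handled together was not tested.

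Of 68 named genes called at 7 h, none turned its direction on the same probe set. All 68 stayed called in the compared groups alone, with array weights and without the outlying array, 67 after median subtraction, 55 after quantile normalization, 36 in the LPS arrays and 44 with the block. Removing NOS2-/- 7 h replicates 1, 2 and 3 in turn left 61, 18 and 12 called. Removing wild-type 7 h replicates 1, 2 and 3 left 13, 18 and 23. With the outlying array also left out, all 68 stayed called in each of these removals. Other probe sets went the other way, uncalled, for Ctse (-0.0512), Nck1 (0.17), Tsc22d3 (0.0568), Txndc17 (0.11), Pdia6 (0.26) and Adap2 (-0.0041). Of genes not called, Cxcl10 turned to 0.0041 after quantile normalization, with or without the outlying array, and ranged from -0.0998 to 0.0145 without single NOS2-/- 7 h arrays, where Mat1a ranged from -0.0937 to 0.319 (both turned without replicate 2). Background levels were not analysed here, so which dim values stand above background was not tested.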

Other observations

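Some probe sets with large differences belonged to genes whose brighter probe set showed none, and they were picked after their values had been seen. One probe set of Nfkbia, the NF-kB inhibitor, averaged 10.82 in NOS2-/- lungs and 9.57 in wild-type lungs at 7 h (a difference of 1.25, adjusted p = 0.000718) and had a difference of 1.72 at 22 h. The other 3 probe sets of Nfkbia gave 0.04, 0.06 and 0.19 at 7 h. A probe set of Angptl4, an inhibitor of lipoprotein lipase, averaged 6.61 in NOS2-/- lungs and 5.60 in wild-type lungs at 7 h (1.01, adjusted p = 0.0145) with a difference of 2.73 at 22 h, while the brighter one gave -0.17 at 7 h and -0.36 at 22 h. Which transcripts these dimmer probe sets report was not tested.

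Single probe sets of Rpl27a, a ribosomal protein, and Erdr1 separated the genotypes at both times without a call at 7 h. Rpl27a was at 9.04, 8.73 and 8.34 in NOS2-/- lungs at 7 h, against 7.46, 7.57 and 7.74 in wild-type lungs (1.11, adjusted p = 0.054), and had a difference of 1.63 at 22 h (adjusted p = 0.00113). The saline NOS2-/- lung was at 8.62 and the saline wild-type lungs at 7.21 to 8.60. Erdr1 was at 10.39, 10.54 and 10.45 in NOS2-/- lungs at 7 h, against 12.44, 11.74 and 11.55 in wild-type lungs (-1.45, adjusted p = 0.052), and had a difference of -1.98 at 22 h (adjusted p = 0.00166). The saline NOS2-/- lung was at 10.81, below the saline wild-type lungs at 11.20 to 12.70.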
